A study of Homo sapiens with 2 samples.

Results

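The genes described are 10 members of the YAP, TEAD and Hippo pathway, namely YAP1, WWTR1, TEAD1, LATS1, LATS2, AJUBA, CTGF, CYR61, ANKRD1 and AMOTL2. They were taken by gene symbol from a table of 58302 genes, each on 1 row. They were measured by RNA-seq of polyadenylated RNA from Tu212, an epithelial-derived cell line that stands in for squamous carcinoma of the head and neck. Cells were given either the empty pEZ plasmid (vector control) or pEZ encoding PRMT5 (PRMT5 overexpression) for 48 h, and each group was 1 library. Both groups were the same line and both received a pEZ plasmid. PRMT5 is an arginine methyltransferase. With 1 library per group there was no estimate of the spread between cultures, so no test was run, and every difference below describes these libraries. The members were chosen with values of this comparison in view, so their ratios are given as description only.

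In the Hippo pathway the kinases encoded by STK3 and STK4 activate LATS1 and LATS2, which phosphorylate the coactivators YAP (YAP1) and TAZ (WWTR1) and hold them outside the nucleus. Unphosphorylated YAP and TAZ enter the nucleus and bind TEAD factors, which activate growth and matrix genes such as CTGF, CYR61 and ANKRD1. AJUBA and angiomotin-family proteins act between these steps, AJUBA by restraining LATS kinases and angiomotins by binding YAP. Because the pathway acts through phosphorylation and location of proteins, RNA levels measure the supply of its parts and the output of its target genes, not its activity directly. In squamous epithelium YAP and TAZ are known for promoting proliferation of basal cells.

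The recognition letters of TEAD factors are GGAATG on one strand and CATTCC on the other. RefSeq promoter windows (GRCh38.p14, 250 bases before to 50 after each start) were found for 8 of the 10 members, on 12 starts in all, and 6 of the 12 windows held either motif, where 14.03% of all 35116 windows of that length did. CTGF held 3 copies, and 0.125% of all windows held 3 or more. ANKRD1 held 2 copies, and 1.36% of all windows held 2 or more. The promoters of CTGF and AJUBA are shown because the first is the best known TEAD target and the second belongs to the member that differed most between the libraries. Bases are given 5′ to 3′ on the gene's strand, with the motif in capitals, and the CTGF and AJUBA stretches lie outside the gene's own exons. The CTGF stretch lies at chr6:131951374-131951622 (minus strand) and the AJUBA stretch at chr14:22982643-22982801 (minus strand).
CTGF: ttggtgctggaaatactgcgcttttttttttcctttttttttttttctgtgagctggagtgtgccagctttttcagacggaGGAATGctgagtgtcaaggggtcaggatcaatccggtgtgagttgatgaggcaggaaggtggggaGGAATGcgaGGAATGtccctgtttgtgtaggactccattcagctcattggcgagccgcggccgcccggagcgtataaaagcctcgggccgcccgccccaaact
AJUBA: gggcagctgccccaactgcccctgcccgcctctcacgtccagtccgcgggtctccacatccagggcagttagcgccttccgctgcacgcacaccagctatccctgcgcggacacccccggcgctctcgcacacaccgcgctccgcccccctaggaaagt

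The CTGF copies begin 169, 104 and 95 bases before the start. The AJUBA window at this start held no copy, and the window of a second AJUBA start inside the gene held 1, which begins 59 bases before it. The motif also lay in single windows of YAP1, LATS2 and AMOTL2. The sites of ANKRD1, at chr10:90921290-90921319 and chr10:90921198-90921227 (minus strand), and of YAP1, at chr11:102110273-102110302 (plus strand), are shown with their flanks so that they can be compared with CTGF. The proximal ANKRD1 site lies within the gene's annotated span and wholly in an exon of it (GENCODE release 29), whereas the distal site and that of YAP1 lie outside the exons of their genes.
ANKRD1 distal: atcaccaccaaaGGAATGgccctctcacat
ANKRD1 proximal: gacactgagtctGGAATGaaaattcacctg
YAP1: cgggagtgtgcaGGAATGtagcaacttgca

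A match of letters is a description and does not show that a factor binds there.

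Gene reads totalled 14119997 in the vector control and 19908258 in PRMT5 overexpression. PRMT5 itself had 2068 and 5770 reads, or 144 and 295 CPM (counts per 1000000 reads, scaled by TMM, the trimmed mean of M-values), so its level matched the labels. All 11 squamous epithelial markers looked at, such as KRT5 with 65233 and 100083 reads, were abundant in both libraries. Of 12 fibroblast markers, 7 had 10 or more reads in a library. COL1A2, with 26 and 7 reads, COL3A1, COL6A3 and DCN reached 10 reads only in the vector control. Since 1 high library is enough to pass that floor, no direction is read from their ratios. COL1A1, PDGFRB and MFAP5, which reached 10 reads in both libraries, had log2 ratios of -0.21, -0.22 and 0.34. All 12 together summed to 99.9 and 83.0 CPM, most of it from COL1A1. FAP was at 0 reads in both libraries, and DCN had 12 and 0 reads. Of 8 leukocyte and endothelial markers 3 had 10 or more reads in a library, with a summed level over all 8 of 7.16 and 4.91 CPM. CDH5 was at 0 reads in both. In bulk RNA, fewer cells of a type and less RNA per cell cannot be told apart.

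Of the 10 members, 9 had 10 or more reads in at least 1 library and a log2 ratio (PRMT5 overexpression over vector control) was computed for them. AJUBA alone among these 9 was 1.5-fold apart, and it was lower. In all 17777 genes with that many reads, 5.06% were at least 1.5-fold lower and 7.63% at least 1.5-fold higher. No member was 2-fold apart, where 2.98% of all genes were higher and 1.79% lower by that much. The other 8 had log2 ratios between -0.17 and 0.17. The median log2 ratio of the 9 members was -0.03, or 0.02 with a floor of 50 reads, and that of all genes 0.03. The rule used this contrast, so nothing is read from these shares.

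**Figure D1:**
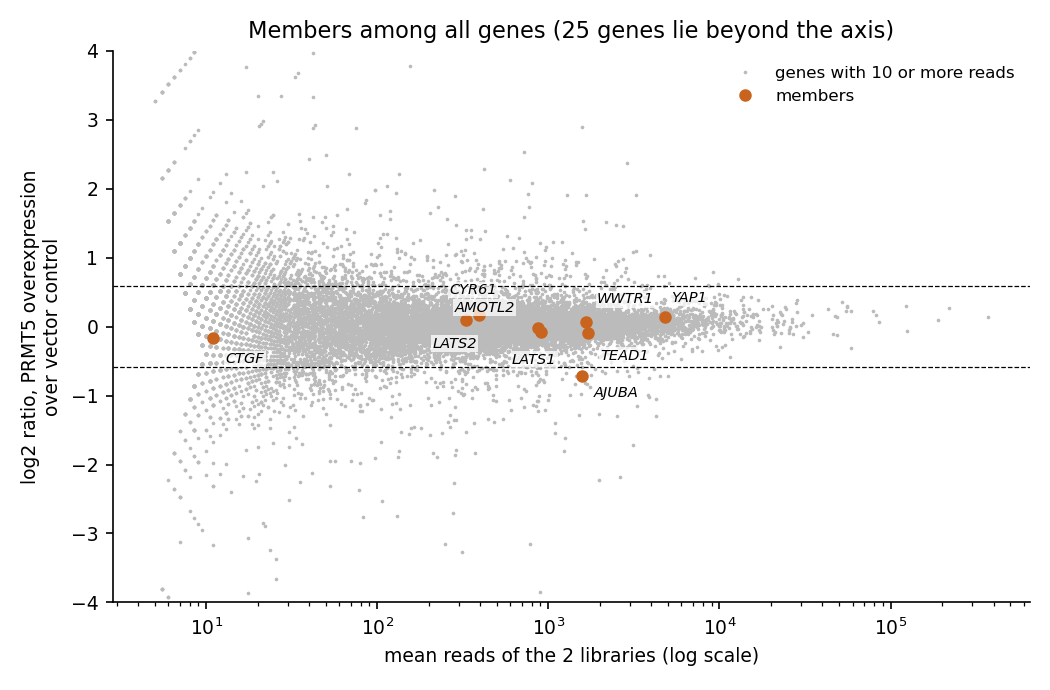
Each grey point is a gene with 10 or more reads in a library (25 lie beyond the axis, and ANKRD1 is not drawn), plotted by its mean reads in the 2 libraries (log axis) and its log2 ratio, PRMT5 overexpression over vector control. Dashed lines mark 1.5-fold, orange points are the 9 members with a ratio, and AJUBA at -0.72 is the member below the lower line.

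YAP1 encodes YAP, the coactivator that LATS kinases phosphorylate, and lies on chromosome 11 from 102110461 to 102233423 (plus strand, GRCh38). It was read 3857 times in the vector control and 5789 times in PRMT5 overexpression, which is 268 and 296 CPM. Its level was slightly higher in PRMT5 overexpression (log2 ratio 0.14, 95% exact binomial Clopper-Pearson interval 0.08 to 0.20). Counting intervals describe counting error only and cover no difference between cultures. They treat reads as independent molecules, which reads are not, so they may be too narrow even for counting error. YAP1 was the only member whose interval lay wholly above 0, and AJUBA the only one wholly below, where the intervals of 17% of all tested genes lay wholly above and of 11.9% wholly below. An exon-sharing gene, AP000942.2, held 25 and 51 reads, and the ratio was 0.15 with its reads added.

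WWTR1, which encodes TAZ, the paralog of YAP, lies on chromosome 3 from 149517235 to 149736714 (minus strand). It had 1378 and 1962 reads, or 95.8 and 100.4 CPM. The difference was within counting error (log2 ratio 0.07, interval -0.03 to 0.17). The antisense gene WWTR1-AS1 shares exon bases with it and had 20 and 59 reads, and their sum had a ratio of 0.09. The labels do not say whether the counting used strand, so reads on shared bases cannot be told apart.

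TEAD1, on chromosome 11 from 12674591 to 12944483 (plus strand), encodes a DNA-binding partner of YAP and TAZ. It had 1499 and 1920 reads, or 104 and 98.2 CPM. The difference was again within counting error (log2 ratio -0.09, interval -0.18 to 0.01). Its paralogs TEAD2, TEAD3 and TEAD4 had log2 ratios of 0.16, 0.13 and -0.15, all with intervals that hold 0. VGLL4, a repressor that competes with YAP for TEAD, had a ratio of 0.09. Genes that share exon bases with VGLL4 had 295 and 373 reads, and the ratio was 0.05 with their reads added. VGLL1 and VGLL3, which also bind TEAD, had 2 or fewer reads in each library and have no fold.

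Of the inhibitory kinases, LATS1 lies on chromosome 6 from 149658153 to 149718256 (minus strand) and LATS2 on chromosome 13 from 20973032 to 21061547 (minus strand). LATS1 had 796 and 1020 reads, or 55.4 and 52.2 CPM. LATS2 had 269 and 389 reads, or 18.7 and 19.9 CPM. Their log2 ratios were -0.09 (interval -0.22 to 0.05) and 0.09 (interval -0.14 to 0.32), so neither kinase gene stood beyond counting error. LATS2 is also a transcriptional target of YAP.

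Upstream of LATS1 and LATS2, STK3, STK4, MOB1A and MOB1B had log2 ratios between -0.03 and -0.02. STK3 and STK4 phosphorylate LATS kinases, and MOB1A and MOB1B are their coactivators. SAV1, the scaffold that holds STK3 or STK4 near LATS, was lower in PRMT5 overexpression, from 1449 and 1588 reads (log2 ratio -0.31, interval -0.41 to -0.21). NF2, which encodes merlin, an activator of LATS at the membrane, was higher, from 603 and 1100 reads (log2 ratio 0.42, interval 0.28 to 0.57). Both were under 1.5-fold. SAV1 shares exon bases with ATL1, which had 123 and 143 reads, and was at -0.30 once summed with it. MOB1B shares exon bases with DCK, which had 525 and 746 reads, and their sum was at 0.01.

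**Figure D2:**
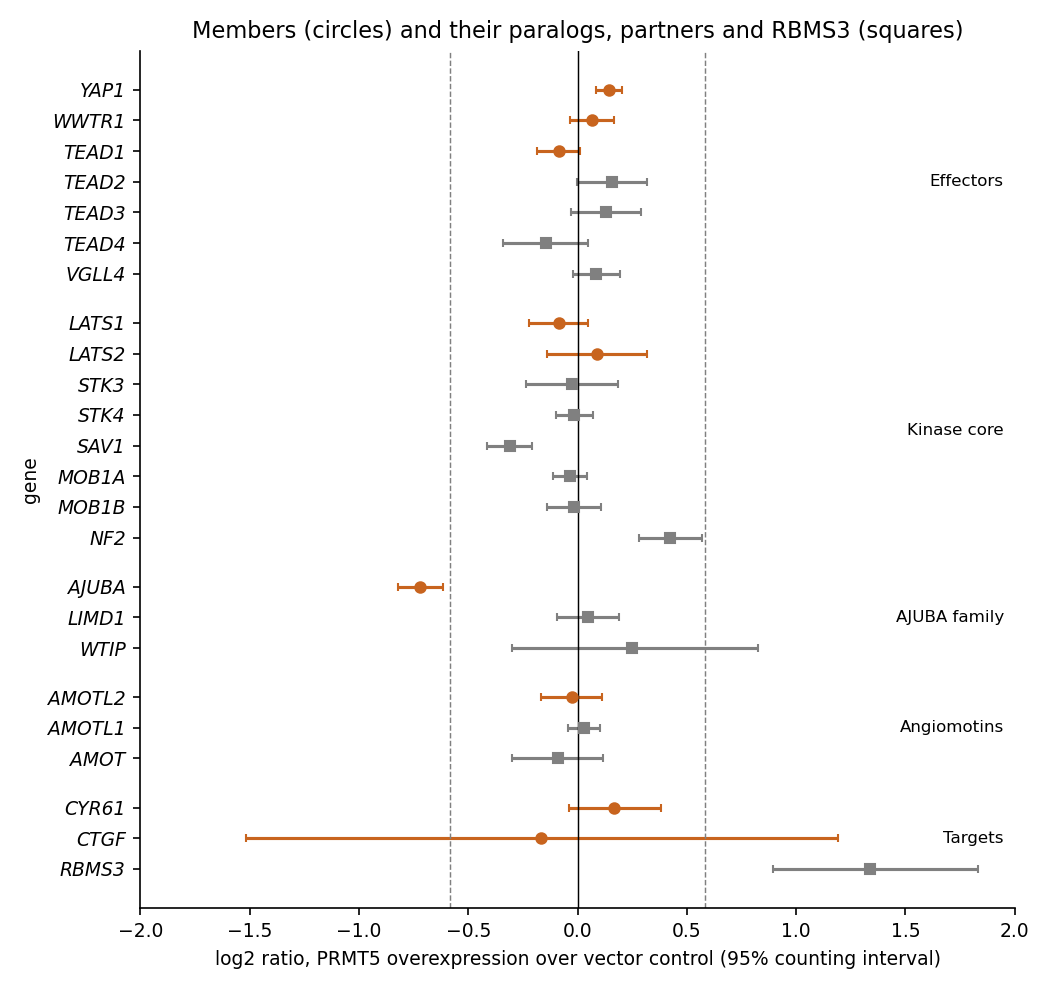
Log2 ratios, PRMT5 overexpression over vector control, of the members (orange circles) and of their paralogs, partners and RBMS3 (grey squares), grouped by role, with 95% counting intervals. Dashed lines mark 1.5-fold, and AJUBA at -0.72 and RBMS3 at 1.34 have intervals wholly beyond them.

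AJUBA encodes a LIM-domain protein that binds LATS kinases and restrains them, and lies on chromosome 14 from 22971174 to 22982642 (minus strand). It had 1716 reads in the vector control and 1417 in the deeper PRMT5 overexpression library, which is 119 and 72.5 CPM. Its level was thus 1.65-fold lower (log2 ratio -0.72, interval -0.82 to -0.62). Among the 4118 genes that averaged at least 1000 reads over both libraries, 28 were at or below AJUBA's ratio, AJUBA included. Of these 4118 genes, 1.02% were at least 1.5-fold lower and 1.63% higher, against 5.06% and 7.63% of all tested genes. This set was chosen after seeing the data, and AJUBA was chosen with this comparison in view. Its place in the set is therefore description only. The gene AL132780.3, which shares exon bases with AJUBA, had 0 reads in both libraries. Of 422 stretches of 50 bases along the longest AJUBA transcript, 0 occurred in transcripts of another gene.

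The paralogs of AJUBA had intervals that hold 0. LIMD1, which also restrains LATS kinases, was counted in 700 and 984 reads (log2 ratio 0.05, interval -0.09 to 0.19), and WTIP in 45 and 73 reads (log2 ratio 0.25, interval -0.30 to 0.82). A share of reads within the family does not depend on how the libraries are scaled. AJUBA took 69.7% of the family's 2461 reads in the vector control (Clopper-Pearson interval 67.9% to 71.5%) and 57.3% of 2474 reads in PRMT5 overexpression (55.3% to 59.2%). LIMD1 took 28.4% (26.7% to 30.3%) and 39.8% (37.8% to 41.7%). The family as a whole thus gave nearly the same number of reads in both libraries, although PRMT5 overexpression was read 1.41 times as deeply.

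**Figure D3:**
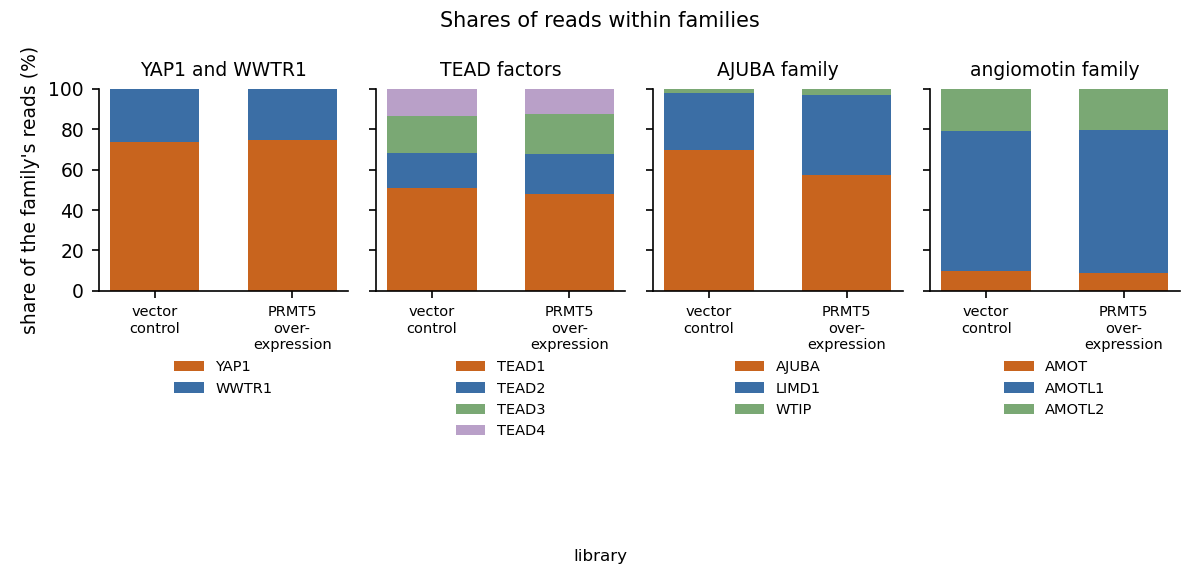
Stacked bars give each gene's share (%) of its family's raw reads in the vector control and PRMT5 overexpression libraries, for 4 families. The share of AJUBA is 69.7% and 57.3%, while that of YAP1 is 73.7% and 74.7%.

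AJUBA and PRMT5 are near neighbours on chromosome 14, with 41.6 kb between the end of PRMT5 (22920511 to 22929585, minus strand) and AJUBA. Genes within 100 kb of AJUBA were therefore described, a rule added after the values were seen. Of the 12 neighbours with 10 or more reads in a library, PRMT5 and PRMT5-AS1 were the 2 that were at least 1.5-fold higher. AL132780.5 was the 1 that was at least 1.5-fold lower, where 7.63% and 5.06% of all tested genes were higher and lower. PRMT5 is the gene that the plasmid encodes, and PRMT5-AS1 shares exon bases with it. In these 2 genes, reads of the plasmid cannot be told apart from reads of the locus, so nothing is read from their count. AL132780.5, a transcript of the annotation class TEC whose span lies within that of C14orf93, 22.9 kb from AJUBA, was counted in 65 and 36 reads (log2 ratio -1.27, interval -1.93 to -0.69). HAUS4, a mitotic spindle subunit gene that lies between PRMT5 and AJUBA, had 779 and 1149 reads and a ratio of 0.12, with an interval of -0.02 to 0.25 that holds 0. On the far side of AJUBA, C14orf93 was at 0.22 and the proteasome subunit gene PSMB5 at -0.32, with an interval of -0.41 to -0.23. Farther on that side, CDH24, a cadherin gene, was at -0.13 (interval -0.22 to -0.04) and ACIN1, which encodes a nuclear RNA-binding protein, at -0.17 (interval -0.23 to -0.10). The median of the 12 neighbours was 0.06 with PRMT5 and PRMT5-AS1 among them, and would be lower without them. C14orf93 (interval 0.02 to 0.42) and HAUS4, the nearest protein-coding genes with 10 or more reads on the 2 sides of AJUBA, had overlapping intervals. Whether that of C14orf93 holds 0 depends on the scaling, since the median of all tested genes was 0.03 with TMM and -0.03 with total counts.

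**Figure D4:**
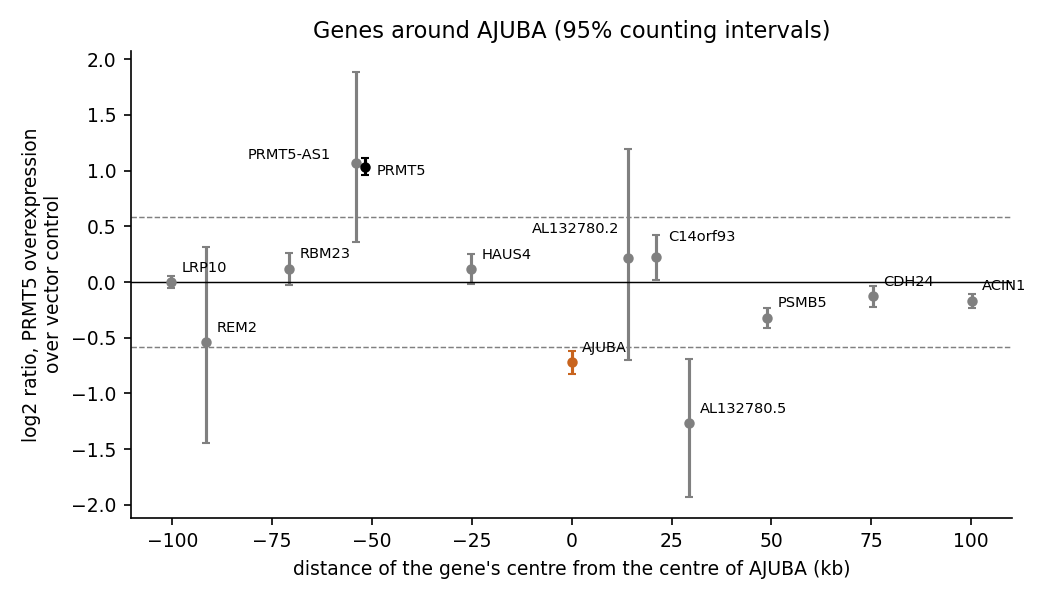
Log2 ratios, PRMT5 overexpression over vector control, of genes with 10 or more reads near AJUBA (orange), against the distance of each gene's centre from that of AJUBA in kb, with 95% counting intervals. Dashed lines mark 1.5-fold, and PRMT5 (black) is at 1.04 and AJUBA at -0.72, with HAUS4 at 0.12 between them.

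AMOTL2, an angiomotin-family gene that is also a YAP target, lies on chromosome 3 from 134355874 to 134375479 (minus strand). It had 742 and 990 reads, or 51.6 and 50.6 CPM (log2 ratio -0.03, interval -0.17 to 0.11). AMOTL1 and AMOT, the other angiomotins, were at 0.03 and -0.09. AMOTL2 took 20.7% of the family's reads in the vector control (19.4% to 22.1%) and 20.3% in PRMT5 overexpression (19.1% to 21.4%). The composition of this family thus hardly differed between the libraries.

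The secreted matrix proteins CYR61 and CTGF are the TEAD targets most used as readouts of YAP. CYR61, on chromosome 1 from 85580761 to 85583962 (plus strand), had 310 and 474 reads, or 21.6 and 24.2 CPM. Its interval held 0 (log2 ratio 0.17, interval -0.04 to 0.38). CTGF, on chromosome 6 from 131948176 to 131951373 (minus strand), had only 10 and 12 reads, or 0.695 and 0.614 CPM. The interval was wide (log2 ratio -0.17, interval -1.52 to 1.19), so a difference of 2-fold either way was not detectable at this depth. With the 0 and 2 reads of AL133346.1, which shares exon bases with CTGF, the ratio was 0.04. The sign of the CTGF ratio therefore depends on how 2 reads are assigned.

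ANKRD1, on chromosome 10 from 90912096 to 90921276 (minus strand), encodes a nuclear ankyrin-repeat protein. It had 2 and 3 reads, at or under the floor of 3 reads, equal to 0.209 CPM in the shallower and 0.153 CPM in the deeper library. No fold is given for it. CTGF and ANKRD1, whose windows held more copies of the TEAD motif than those of the other members with a window, were thus the least read. CYR61 and CTGF are also abundant in fibroblasts. The fibroblast marker list above gives no direction, since COL1A2, COL3A1, COL6A3 and DCN passed the floor only through the vector control. Apart from COL1A1, the 7 fibroblast markers past the floor had 29 or fewer reads in each library. Both libraries came from the Tu212 line, not from tissue. Any part of the fibroblast markers in the values of CYR61 and CTGF was not tested.

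Levels were compared between genes per kilobase of merged exons in GENCODE release 29 (GRCh38), as CPM per kilobase. YAP1 was the highest member, at 42.6 and 47.0 CPM per kilobase in the vector control and PRMT5 overexpression, above 94.6% and 94.9% of tested genes. AJUBA came next in both libraries, at 19.96 and 12.1, and was above 86.2% of tested genes in the vector control and 76.3% in PRMT5 overexpression. WWTR1 followed at 11.4 and 11.9, so the levels of AJUBA and WWTR1 differed beyond counting error in the vector control but had overlapping counting intervals in PRMT5 overexpression.

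TEAD1 was at 10.1 and 9.55 CPM per kilobase, CYR61 at 8.78 and 9.88, and AMOTL2 at 8.62 and 8.46. TEAD1 was above CYR61 in the vector control and below it in PRMT5 overexpression, with overlapping counting intervals in both libraries. LATS1 was at 6.41 and 6.04 and LATS2 at 3.35 and 3.57, around the median of all tested genes of 4.25 and 4.30. CTGF was at 0.297 and 0.262, above 7.52% and 6.13% of tested genes, and ANKRD1 at 0.0703 and 0.0775. The order thus ran from an abundant coactivator to the targets CTGF and ANKRD1 near the limit of detection, with the targets CYR61, AMOTL2 and LATS2 in between. With the authors' deposited FPKM, which rest on other gene lengths, AJUBA ranked 2 in the vector control but 5 in PRMT5 overexpression. CYR61 ranked 3 and 2 on that scale, above WWTR1 (4 and 3) and TEAD1 (5 and 4) in both libraries, so the order of these genes depends on the gene lengths used.

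**Figure D5:**
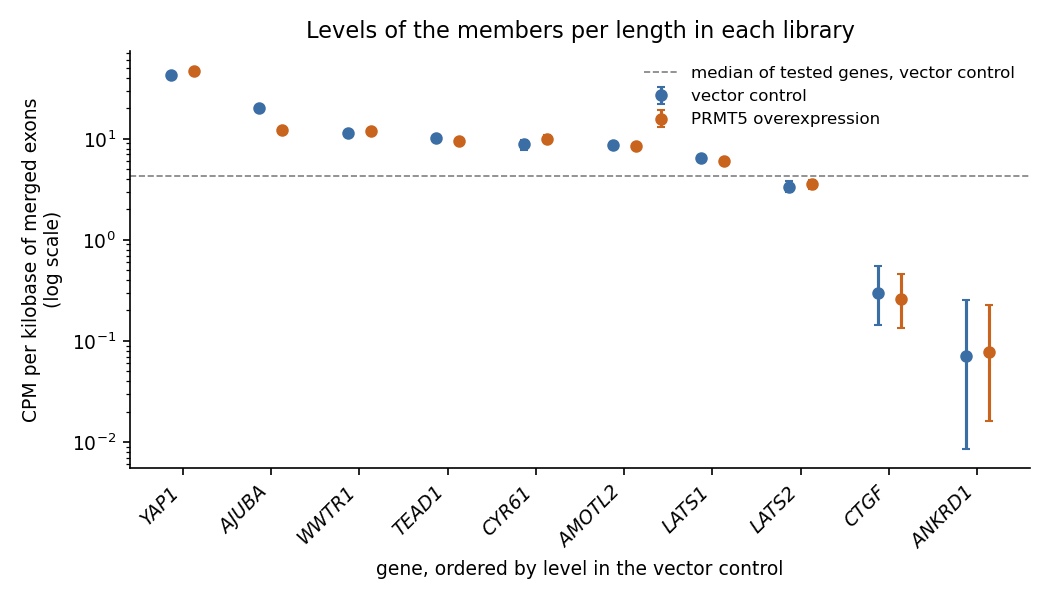
Level of each member in CPM per kilobase of merged exons (log axis), in the vector control (blue) and PRMT5 overexpression (orange) libraries, with 95% exact Poisson counting intervals. The dashed line is the median of tested genes in the vector control, 4.25, and CTGF at 0.297 and ANKRD1 at 0.0703 lie far below it.

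Within paralog groups, YAP1 was 3.74-fold above WWTR1 per kilobase in the vector control and 3.94-fold in PRMT5 overexpression. LATS1 was 1.91-fold and 1.69-fold above LATS2, and took 74.7% (interval 72.0% to 77.3%) and 72.4% (70.0% to 74.7%) of their joint reads. CYR61 was 29.5-fold and 37.6-fold above CTGF, or 25.5-fold and 32.5-fold with the deposited FPKM. These folds are imprecise, since CTGF had 10 and 12 reads, with intervals of 0.143 to 0.547 and 0.136 to 0.458 CPM per kilobase. CYR61 took 68.4% (interval 63.9% to 72.7%) and 72.1% (68.5% to 75.5%) of the reads of the CCN family. NOV, another secreted CCN protein gene, took 27.8% (23.7% to 32.2%) and 25.3% (22.0% to 28.8%), so these 2 genes held nearly all CCN reads in both libraries. WISP1 and WISP3 had 2 and 1 reads in the vector control and 0 in PRMT5 overexpression, where 0 of 657 family reads gives a Clopper-Pearson upper bound of 0.560%, and 3 reads, the floor, would be 0.457%.

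TEAD1 took 50.7% of TEAD reads in the vector control (48.9% to 52.5%) and 48.0% in PRMT5 overexpression (46.5% to 49.6%). Its transcripts are long, and per kilobase its share was 21.7% and 20.1%. The TEAD factors were near each other per kilobase, TEAD2 at 12.3 and 13.7, TEAD3 at 12.2 and 13.3, and TEAD4 at 12.2 and 11.0 CPM per kilobase. With the deposited FPKM of the authors and its other gene lengths, TEAD2 was at 0.671 and 0.684 times the level of TEAD3. All 4 factors were thus present in these cells.

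The other genes of the pathway, taken from lists of kinases, scaffolds, upstream regulators, STRIPAK phosphatase subunits, nuclear effectors and target genes, numbered 81, of which 73 had 10 or more reads in a library. Of these 73, 39 were above 0 and 34 below, with a median log2 ratio of 0.01, which was -0.03 with the deposited FPKM. Of all 17777 tested genes, 9734 were above 0 and 8043 below. Such counts depend on the scaling, since the median of all tested genes was 0.03 with TMM and -0.03 with total counts. RBMS3 and TGFB2 were at least 1.5-fold higher and RASSF5 at least 1.5-fold lower, which is 2 and 1 of 73, where 7.63% and 5.06% of all tested genes were. TGFB2 and RASSF5, named after their values were seen, had 4 and 12 reads and 27 and 24 reads, and both intervals hold 0. By counting interval, 12 of 73 lay wholly above 0 and 7 wholly below, where 17% and 11.9% of all tested genes did. Interval counts depend on the scaling too, since some intervals, such as that of TJP1 (0.01 to 0.23), began near 0.

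By role, the core kinases and scaffolds, here with the members LATS1 and LATS2 included, counted 4 above 0 and 9 below, with a median of -0.02. STK38L was the lowest of them, with 555 and 561 reads (log2 ratio -0.43, interval -0.60 to -0.26). Of 22 upstream regulators 11 were on each side, with a median of -0.00. WWC2, which encodes a KIBRA-family scaffold that promotes LATS activity, was among the higher of these, from 380 and 745 reads (log2 ratio 0.53, interval 0.35 to 0.71). FAT1, an atypical cadherin gene, was counted in 8072 and 12630 reads (log2 ratio 0.20). Of 15 STRIPAK genes, whose complex dephosphorylates STK3 and STK4, 7 were above 0 and 8 below, with a median of -0.02. STRN4, one of its striatin subunits, was the highest, with 1257 and 2355 reads (log2 ratio 0.46). The lowest, PDCD10, had 684 and 725 reads (log2 ratio -0.36, interval -0.51 to -0.21). STK38L, WWC2, FAT1, STRN4 and PDCD10 were named after their values were seen.

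RBMS3, an RNA-binding protein gene on chromosome 3 (28574791 to 30010391, plus strand) from a YAP and TAZ target list, had 51 reads in the vector control and 177 in PRMT5 overexpression, or 3.55 and 9.05 CPM. It was 2.53-fold higher (log2 ratio 1.34, interval 0.90 to 1.83), and on the scale of log2(FPKM + 1), which understates changes of low genes, the difference was 0.25. Of the 17 target genes that are not members, 12 were above 0 and 5 below, with a median of 0.09, where 9734 of all 17777 tested genes were above 0. The most read of them, MYOF, a membrane repair protein gene, gave 6755 and 9553 reads (log2 ratio 0.06, interval 0.01 to 0.10). Its lower bound is near 0, so whether the interval holds 0 depends on the scaling. AXL, a receptor tyrosine kinase gene, gave 99 and 170 reads (log2 ratio 0.33, interval -0.03 to 0.71). GADD45A, a growth arrest gene, was the lowest, with 701 and 759 reads (log2 ratio -0.33, interval -0.48 to -0.18). These 3 were named after their values were seen, and the median of the list lay near that of all genes, 0.03.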

How the data were processed

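The authors deposited, per the file headers, a raw count and an FPKM value for each gene in each of 2 libraries, vector control and PRMT5 overexpression. The submitters' processing notes name GRCh38, hg38, HISAT2 2.1.0, StringTie 1.3.4b, CASAVA 1.8 and edgeR, with no role for each. The deposited FPKM was proportional to the count within 1% in 100% of 11478 genes with over 100 reads in both libraries, and the length it used was typically (median) 1.55 times that of the merged exons. No per-sample column was left unused.

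Rows of a symbol were summed. Counts were scaled by TMM over all genes (edgeR 4.0.16, R 4.3.3; factors 1.02 and 0.982), and log2 CPM used a prior count of 1. Genes under 10 reads in both libraries were left out. Intervals are Clopper-Pearson or exact Poisson at 95%. The procedure was tested on simulated data. Alternatives used total counts, size factors from DESeq2 1.42.0, prior counts of 0.1 and 5, the highest row per symbol, FPKM with a pseudocount of 1, other floors and thresholds, protein-coding genes only, and sums over exon-sharing genes. GENCODE release 29 gave exons, and 50-base stretches were taken every 10 bases. Calculations ran in Python 3.11.15 (scipy 1.17.1, pandas 2.3.3, numpy 2.4.6) with figures from matplotlib 3.10.9.

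The members and lists were chosen with earlier results of these data known. Named genes are the members, PRMT5, fixed paralogs and partners, other pathway genes at 1.5-fold with a mean of 50 or more reads, and genes sharing exons with a member; the text gives part of them. A planned comparison of protein sequences was not run.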

Additional observations from a re-analysis of the deposited data

How the results depend on the processing

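All 69 recalculated ratios of the 9 members stayed within their counting intervals. Medians near 0 changed sign: that of the members was 0.02 with no floor or a floor of 50 reads, and that of the other pathway genes was -0.03 with FPKM and -0.02 with TMM restricted to genes past the floor. The medians of the AJUBA family (FPKM) and of the CCN family and upstream regulators (floor of 50 reads) also changed sign. AJUBA lay between -0.77 (total counts) and -0.69 (FPKM). CTGF was the 1 member whose sign changed. With FPKM, whose pseudocount of 1 shrinks ratios, PRMT5 was at 0.93 and RBMS3 at 0.25. At 2-fold, 0 members were lower. TMM restricted to genes past the floor, and the set averaging at least 1000 reads, were chosen after seeing the data.

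Numbers of tested genes at least 1.5-fold lower and higher, 900 and 1357, became 223 and 326 with FPKM, 4272 and 5019 without any floor, 319 and 529 at 2-fold, 321 and 477 once the floor was 50 reads, 565 and 615 among protein-coding genes, and 42 and 67 among genes averaging at least 1000 reads. Smaller sets of genes give smaller numbers by construction. With FPKM in place of merged exon length, YAP1 over WWTR1 was 3.43 in the vector control and 3.62 in PRMT5 overexpression, LATS1 over LATS2 1.27 and 1.12, AJUBA over LIMD1 3.31 and 1.94 (5.20 and 3.05 per kilobase), and AJUBA ranked 5 in PRMT5 overexpression. These differ by the gene length used. No paired analysis was possible because both groups are single libraries, and for the same reason no library could be left out. CTGF and ANKRD1, with 12 reads or fewer in a library, are limited by depth.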

Other observations

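AJUBA protein is also known to bind the transcriptional repressor SNAIL together with PRMT5 at the E-cadherin promoter, and to activate the mitotic kinase Aurora A. The RNA levels of these partners, named after values were seen, were as follows. SNAI1, which encodes SNAIL, had 16 and 21 reads in the vector control and PRMT5 overexpression, too few to place its ratio (log2 ratio -0.05, interval -1.06 to 0.98). SNAI2, its paralog, had 1114 and 1343 reads and a ratio of -0.17 (interval -0.29 to -0.06). CDH1, which encodes E-cadherin, had 4553 and 8101 reads, or 317 and 414 CPM, and a ratio of 0.39 (interval 0.34 to 0.44). AURKA, which encodes Aurora A, had 1126 and 2351 reads and a ratio of 0.62 (interval 0.52 to 0.72). Of all tested genes, 17% had intervals wholly above 0 and 11.9% wholly below. CDH1 is also among the 11 squamous epithelial markers, of which 9 were above 0. With 1 library per group, no relation between these genes could be tested.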
